A study of Mus musculus with 3 samples.

Results

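Imprinted genes are expressed mainly from 1 of the parental alleles. Often a methylation mark placed in the egg or the sperm is kept after fertilisation and governs which copy is read. Most imprinted genes lie in clusters that share 1 control region, and within a cluster paternally and maternally expressed genes often stand side by side. Many act on fetal growth: several paternally expressed genes, such as Igf2, promote it, and several maternally expressed genes, such as Cdkn1c, Grb10, Phlda2 and Igf2r, restrain it. A number of them are strongly expressed in the embryo and decline after birth. Methylation and parental alleles were not measured here, so the values below are total RNA levels and say nothing of which allele was read.

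A list of 36 imprinted genes was examined, 19 expressed from the paternal and 17 from the maternal allele, in 16 domains, with alleles and domains assigned from textbook knowledge. Members were found by the gene name of their probes, and 33 of them had at least 1 named probe among the 18951 genes named on the arrays. They were read by 53 of 41171 probes. H19, Meg3 and Rtl1 received no named probe and are not analysed here. The members were also divided into 27 genes whose imprinting is known in the body and 9 whose imprinting is known mainly in placenta or yolk sac, the extraembryonic tissues. A second list held 50 further imprinted genes and neighbours of the same domains, of which 45 had a probe, and a last list held 23 regulators of imprints and partners of the IGF2 pathway.

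The study asked whether fibroblasts can be turned towards thyroid follicular cells, which make thyroid hormone. It used 3 mouse cultures of the outbred ICR strain, each read on 1 Agilent single-colour array. The 7-factor culture came from embryonic fibroblasts of day E13.5 that carried retroviruses for the thyroid factors Pax8, Nkx2.1 and Foxe1 and the reprogramming factors Oct3/4, Sox2, Klf4 and c-Myc. The 8-factor culture carried Hhex as well, which encodes a homeobox factor active in the early thyroid. Both were taken on day 21, after 1 week in basal medium with serum and 2 weeks in medium with thyroid stimulating hormone and potassium iodide. The remaining one was a primary culture of follicular cells from adult ICR thyroid, kept for 1 week in that medium. No array of uninfected fibroblasts was among the samples, so the factors, the fibroblast origin and the embryonic age cannot be told apart in any difference from the primary culture.

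Each group is 1 array, so there is no replicate error and no test is given. The level of a gene is the log2 of its processed signal minus the 75th percentile of its array, read from the brightest of its probes. Levels of different genes are not comparable with each other, because probes differ in brightness. A gene was called higher or lower at a 2-fold difference. Where a probe was not well above background on 1 of the arrays, the dim value was replaced by the higher of its own signal and the lowest signal well above background on that array. The difference is then a bound, printed as "at least". The only error available was that of the scanner software, which for the members came to 0.20 to 0.40 on the log2 scale of a difference and covers the reading of the spots alone.

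The 75th percentile signal was 2190 and 2535 on the induced arrays and 504 on the primary array, and 78.2%, 78.2% and 64.2% of spots were well above background. The primary array lay on another slide and was read in another scan, so slide and group cannot be told apart. The labels name RNeasy and Isogen for RNA extraction and do not say which served which culture. The summed level of 7 thyroid follicular markers was 1.85 and 2.33 in the 7- and 8-factor cultures against 519 in the primary culture. By these markers the induced cultures held little thyroid RNA. The brightest gene weighs most in such a sum. It was Foxe1 in the induced cultures (0.72 and 1.12, against 3.21) and Tg in the primary culture (8.89, against -2.93 and -3.85). Foxe1, Pax8 and Nkx2-1 are markers here and were also delivered by retrovirus. Fibroblast markers were 8 of 8 above background on every array, with sums of 269, 184 and 103 in the same order. The primary array also carried leukocyte markers (58.9 against 0.135 and 0.128) and C cell and parathyroid markers (364 against 1.30 and 6.59). As these are bulk cultures, fewer cells of a type and less RNA per cell cannot be told apart.

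Sequence from the starts of 3 of the domains is shown because their genes stood higher in the induced cultures, and because a germline mark at such starts is read by ZFP57, a zinc finger protein that protects imprints. ZFP57 is known to bind the hexamer TGCCGC, or GCGGCA on the other strand. The sequences come from RefSeq on GRCm38.p6, on the plus strand, and 29 members matched an entry. For Mest (chr6:30737800-30738049) and Plagl1 (chr10:13090582-13090831) the 250 bases before a start are given, and capitals mark matches to the hexamer. Peg3 and Usp29 are transcribed away from each other, and the 163 bases between their starts are given (chr7:6730420-6730582). In them capitals mark CCAAT, a common promoter box that was picked after the sequence had been seen.
Mest: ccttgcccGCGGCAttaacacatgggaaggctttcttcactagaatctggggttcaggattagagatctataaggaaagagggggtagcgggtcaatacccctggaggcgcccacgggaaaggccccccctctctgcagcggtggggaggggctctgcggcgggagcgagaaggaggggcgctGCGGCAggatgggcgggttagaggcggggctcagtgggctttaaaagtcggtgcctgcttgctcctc
Plagl1: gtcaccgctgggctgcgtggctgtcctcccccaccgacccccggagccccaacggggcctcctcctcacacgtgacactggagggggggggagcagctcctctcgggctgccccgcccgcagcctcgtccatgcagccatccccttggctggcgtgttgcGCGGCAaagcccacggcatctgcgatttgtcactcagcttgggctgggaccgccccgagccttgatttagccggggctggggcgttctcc
Peg3-Usp29: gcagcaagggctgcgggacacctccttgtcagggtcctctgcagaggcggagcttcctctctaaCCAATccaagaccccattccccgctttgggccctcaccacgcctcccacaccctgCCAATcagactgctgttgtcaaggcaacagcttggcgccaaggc

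The Mest stretch holds the hexamer 2 times, the Plagl1 stretch 1 time and the Peg3-Usp29 stretch 0 times. Over windows of 300 bases (250 before and 50 after a start, both strands), the hexamer was found in 10 of 46 windows of the members (21.7%) and in 11.6% of 32851 promoters of the table. The share was 23.1% of 26 windows of paternally expressed and 20.0% of 20 windows of maternally expressed members. Some windows of a gene overlap, and the members' windows were richer in G and C, with a median of 56.2% against 52.7%. A second CCAAT, or ATTGG on the other strand, stood in 17.4% of the members' windows and 11.7% of all, and at least 1 in 34.8% and 37.4%. These matches describe letters in a window and are not binding sites.

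Paternally expressed members stood above the primary thyroid culture more often than maternally expressed ones. The members were chosen with earlier results of these data known, so this describes the chosen list alone. In the second list 10 paternally expressed genes gave 3 higher and 3 lower with 7 factors, and 22 maternally expressed ones 4 higher and 5 lower. In the 7-factor culture 17 of 32 members compared were higher and 5 lower, 53.1% and 15.6%, where 19.1% of all 16152 genes compared were higher and 27.1% lower. Of the 18 paternally expressed members 12 were higher and 0 lower, with a median difference of 1.87 on the log2 scale. The 14 maternally expressed members were split into 5 higher and 5 lower with a median of 0.14, which turned to -0.14 under normexp background correction and to -0.81 when the probes of a gene were averaged. The median of all genes was 0.00, counting as 0 the genes without a usable fold, and -0.08 over genes well above background on both arrays. Paternally expressed members include 5 that rest on bounds and 2 without a usable fold. All of these were dim on the primary array alone, so none of them could be called lower. Of the 11 read on both arrays 7 were higher and 0 lower, with a median of 3.68. Of the 13 maternally expressed members read on both arrays 5 were higher and 5 lower. Under normexp 9 of the 18 paternally expressed members were higher and their median was 0.98.

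The 8-factor culture is set against the same primary array, so it is no second check of that array. There 15 of 32 members were higher and 6 lower, 46.9% and 18.8%, beside 17.8% and 27.5% of all 16160 genes compared. Paternally expressed members gave 10 higher and 0 lower (median 1.31), and maternally expressed ones 5 higher and 6 lower (median 0.03, or -0.43 with averaged probes). Over members well above background on both arrays, 7 of 11 paternally expressed ones were higher and 0 lower. Of 13 maternally expressed ones 5 were higher and 6 lower. Without scaling between arrays the paternal medians stayed the higher of the pair, at 3.99 against 2.19 for the 7-factor and 3.64 against 2.13 for the 8-factor culture. With averaged probes 1 paternally expressed member, Zrsr1, was lower in the 8-factor culture (-1.31), through a second probe that was not well above background on any array.

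**Figure D1:**
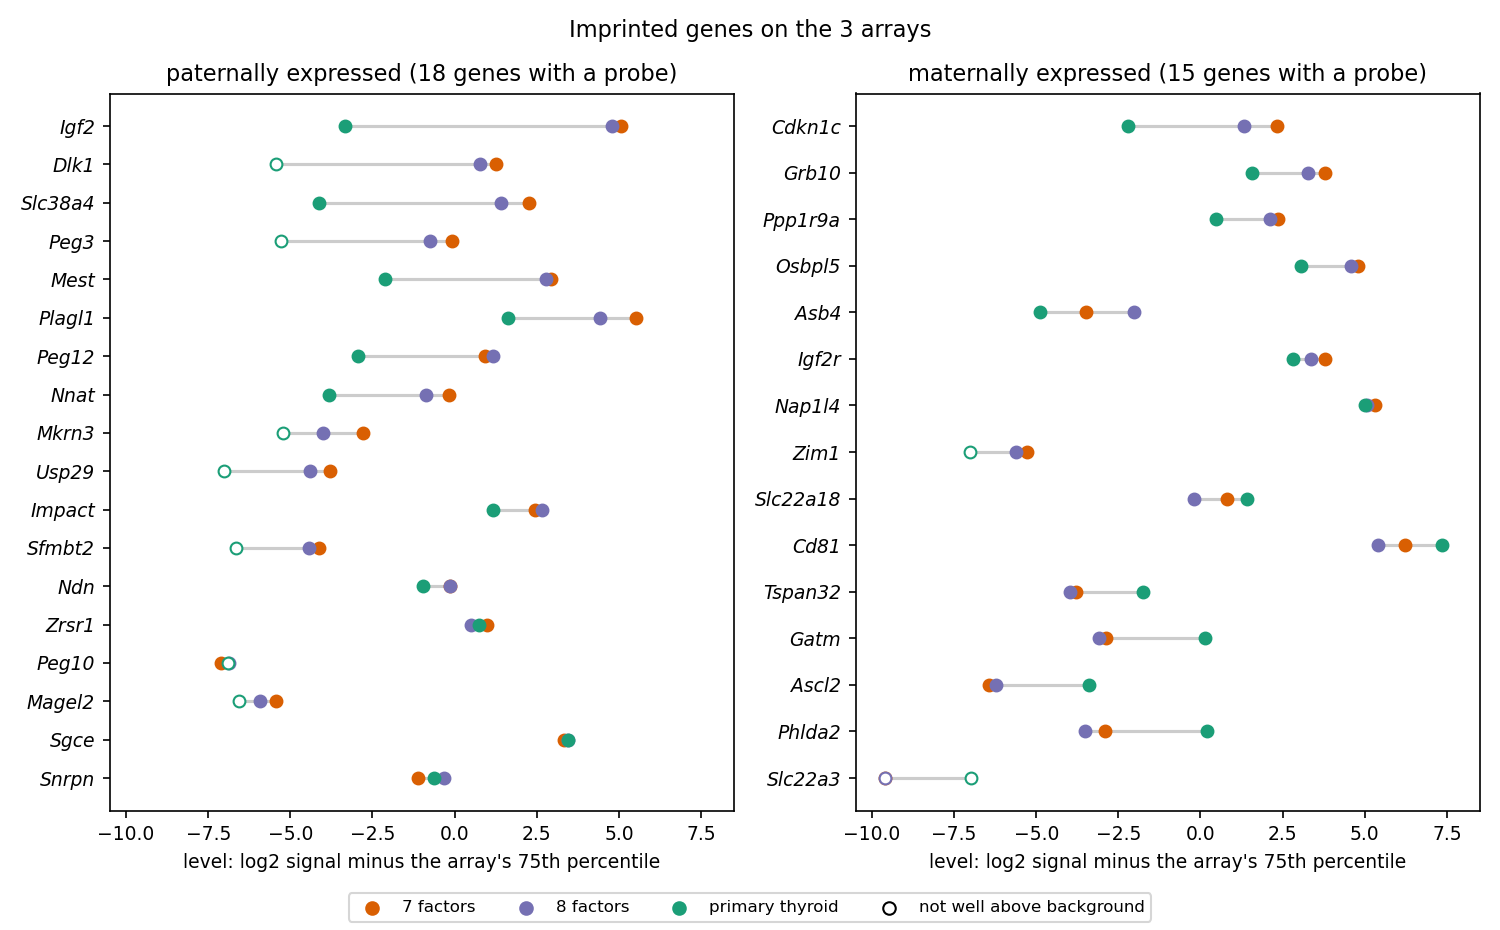
Level of each imprinted gene with a probe (log2 signal minus the 75th percentile of the array) on the 3 arrays, for 18 paternally expressed genes at left and 15 maternally expressed genes at right. Open points are not well above background, and grey lines join the lowest and the highest level. Among paternally expressed genes the green primary points lie mostly to the left, as for Igf2 (-3.33) and Dlk1 (-5.43), and among maternally expressed genes they lie on either side. Among differences called lower, those of Cd81 and Tspan32 (both induced cultures) and Slc22a18 (8 factors) change direction without scaling between arrays. Smaller differences turn too, as for Slc22a18 with 7 factors (-0.60 to 1.52).

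Igf2, the fetal insulin-like growth factor and the largest difference among members measured on both arrays, had levels of 5.07 in the 7-factor, 4.80 in the 8-factor and -3.33 in the primary culture. It was 339-fold and 281-fold higher in the induced cultures, log2 differences of 8.40 ± 0.22 and 8.13 ± 0.22 (scanner error). A second probe gave 7.66 and 8.14, and normexp gave 7.05 and 6.84. The primary culture was the low array on both probes, while the induced cultures lay within 2-fold of each other on each.

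Those of its neighbours on chromosome 7 that could be compared did not share this difference. Ins2, the insulin gene beside it and also read from the paternal allele, was not well above background in the primary culture, and the bound gave no fold. Mrpl23, a mitochondrial ribosomal protein gene on the H19 side, had levels of 4.91, 4.84 and 4.46, all within 2-fold. Lsp1, a leukocyte gene further out, was 4.09-fold and 4.92-fold lower in the induced cultures, next to the leukocyte markers of the primary culture given above, whose part was not tested. Its direction turns without scaling. Tnnt3, the fast skeletal troponin T, was 2.10-fold and 2.89-fold lower, and turns likewise.

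Dlk1, a membrane protein of progenitor and preadipocyte cells, had levels of 1.25 and 0.78 in the 7- and 8-factor cultures and was not well above background in the primary culture (-5.43). It was at least 84.2-fold and 61.1-fold higher in the induced cultures, log2 bounds of 6.40 and 5.93 that became 4.12 and 3.81 under normexp. In the same cluster on chromosome 12, the maternally expressed noncoding RNA Rian was higher too, by 5.18-fold and 5.44-fold, from -2.59 in the primary culture to -0.21 and -0.14. Dio3, the paternally expressed deiodinase that inactivates thyroid hormone, lay at the far end of that cluster and went the other way. Its levels were -1.79, -1.22 and 1.48, 9.66-fold and 6.50-fold lower in the induced cultures. Wdr25, a neighbour outside the imprinted stretch, differed by -0.14 and -0.06 on its brightest probe and by -3.18 and -2.11 on the other.

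Mest, a hydrolase-like protein of mesoderm whose start is printed above, had levels of 2.94, 2.78 and -2.11 and was 33.0-fold and 29.6-fold higher in the 7- and 8-factor cultures. Both induced arrays lay well apart from the primary one and within 0.16 of each other. The adjoining genes that could be compared did not follow it. Copg2, a coat protein subunit transcribed towards Mest, differed by -0.57 and -0.65, within 2-fold, and 1 of its 3 probes had the opposite sign (0.30 and 0.66). Cpa4, a carboxypeptidase, was 10.1-fold and 9.32-fold lower. Klf14, a maternally expressed transcription factor, was not well above background in the primary culture and gave no fold.

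The Peg3 domain, also on chromosome 7, holds the divergent pair printed above. Peg3, a zinc finger protein, had levels of -0.07 and -0.75 in the induced cultures and was not well above background in the primary culture (-5.28), at least 33.9-fold and 21.1-fold higher, or log2 bounds of 3.04 and 2.49 under normexp beside 5.08 and 4.40. Usp29, a ubiquitin protease read in the opposite direction from the same start region, was at least 2.57-fold higher with 7 factors. With 8 factors the bound was 1.68-fold, short of a call, and under normexp Usp29 gave no fold in either culture. Zim1, the maternally expressed zinc finger gene of the domain, had levels of -5.30, -5.62 and -7.01 and gave no fold, since the primary array could not have shown a signal that dim.

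Plagl1, the growth-arrest factor also called Zac1, had levels of 5.51, 4.42 and 1.62 and was 14.8-fold and 6.98-fold higher in the induced cultures. Slc38a4, a transporter of neutral amino acids, had levels of 2.27, 1.41 and -4.12, which are 83.7-fold and 46.2-fold differences. Its second probe gave smaller log2 differences of 2.90 and 3.19 beside 6.39 and 5.53, and normexp gave 4.25 and 3.24. Nnat, the small membrane protein neuronatin, had levels of -0.16, -0.88 and -3.84, 12.8-fold and 7.75-fold higher, and its log2 differences of 3.68 and 2.95 were 1.93 and 1.22 under normexp. Nnat lies in an intron of Blcap, a maternally expressed gene, and Blcap differed by -0.76 and -0.70, within 2-fold, on its brightest probe and by -2.21 and -1.30 on the other.

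The Prader-Willi cluster on chromosome 7, named Snrpn here, holds 5 paternally expressed members that did not move as a block. Peg12, a FRAT-family protein of Wnt signalling, had levels of 0.93, 1.17 and -2.93, log2 differences of 3.86 and 4.11. Mkrn3, a ring finger protein, had levels of -2.78 and -4.00 and was not well above background in the primary culture, at least 5.18-fold and 2.21-fold higher. Under normexp neither call held, with a bound of 0.62 on the log2 scale and no fold. Ndn, the MAGE-family protein necdin, differed by 0.84 and 0.82, just inside 2-fold.

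Snrpn itself, the spliceosomal SmN protein, had levels of -1.11, -0.31 and -0.63 and differed by -0.48 and 0.32 from the primary culture. Its second probe gave -0.44 and 0.30. Magel2, a ubiquitin ligase regulator, was dim on every array (-5.44, -5.94 and -6.56) and gave no fold. The maternally expressed neighbours Ube3a, a ubiquitin ligase, and Atp10a, a lipid flippase, differed by -0.38 and 1.17 with 7 factors and by -0.74 and 0.77 with 8 factors. The second probe of Ube3a gave 0.60 and 0.88, the opposite sign.

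Impact, an inhibitor of the kinase GCN2, had levels of 2.45, 2.65 and 1.17 and was 2.42-fold and 2.79-fold higher in the induced cultures. Zrsr1, a splicing protein encoded in an intron of Commd1, had levels of 1.00, 0.51 and 0.74, with no 2-fold difference on its brightest probe. Sfmbt2, a Polycomb-related protein imprinted in extraembryonic tissue, was at least 2.02-fold and 1.65-fold higher, with the primary array not well above background. It gave no fold under normexp or with averaged probes. Of the 19 paternally expressed genes listed, 6 with a probe were therefore not called with 7 factors: Ndn, Snrpn, Magel2, Zrsr1, Peg10 and Sgce.

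In the Peg10-Sgce cluster on chromosome 6 no paternally expressed gene differed by 2-fold. Sgce, epsilon-sarcoglycan, stood at 3.34, 3.46 and 3.44 on the 3 arrays, differences of -0.09 and 0.02, and its second probe gave -0.91 and -0.58. Peg10, a retrotransposon-derived protein that shares its start region with Sgce, was not well above background in the primary culture and dim in the others (-7.10 and -6.88), so no fold can be given. The maternally expressed genes of the cluster did differ, in either direction.

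Asb4, an ankyrin and SOCS box protein, had levels of -3.49, -2.01 and -4.90, 2.66-fold and 7.40-fold higher with 7 and 8 factors. With 7 factors its direction turned to -0.65 under normexp and to -0.59 with averaged probes, the second of which was not well above background on any array. With 8 factors these gave 0.46 and 0.21, short of a call. Ppp1r9a, the actin scaffold neurabin, had levels of 2.34, 2.13 and 0.47 and was 3.66-fold and 3.15-fold higher on its brightest probe. Another of its 4 probes gave -1.12 and -1.18, the opposite direction, and with averaged probes it was not called (0.32 and 0.12).

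Calcr, the calcitonin receptor, was 8.01-fold and 11.3-fold lower in the induced cultures, Dlx5, a homeobox factor of bone, 6.86-fold and 7.29-fold lower, and the paraoxonase gene Pon3 3.98-fold and 4.24-fold lower. The direction of Pon3 turns without scaling. Pon2, its neighbour, differed by -0.14 with 7 factors and was 2.45-fold higher with 8. Casd1, a neighbour beside Sgce, stayed within 0.33 of the primary culture.

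**Figure D2:**
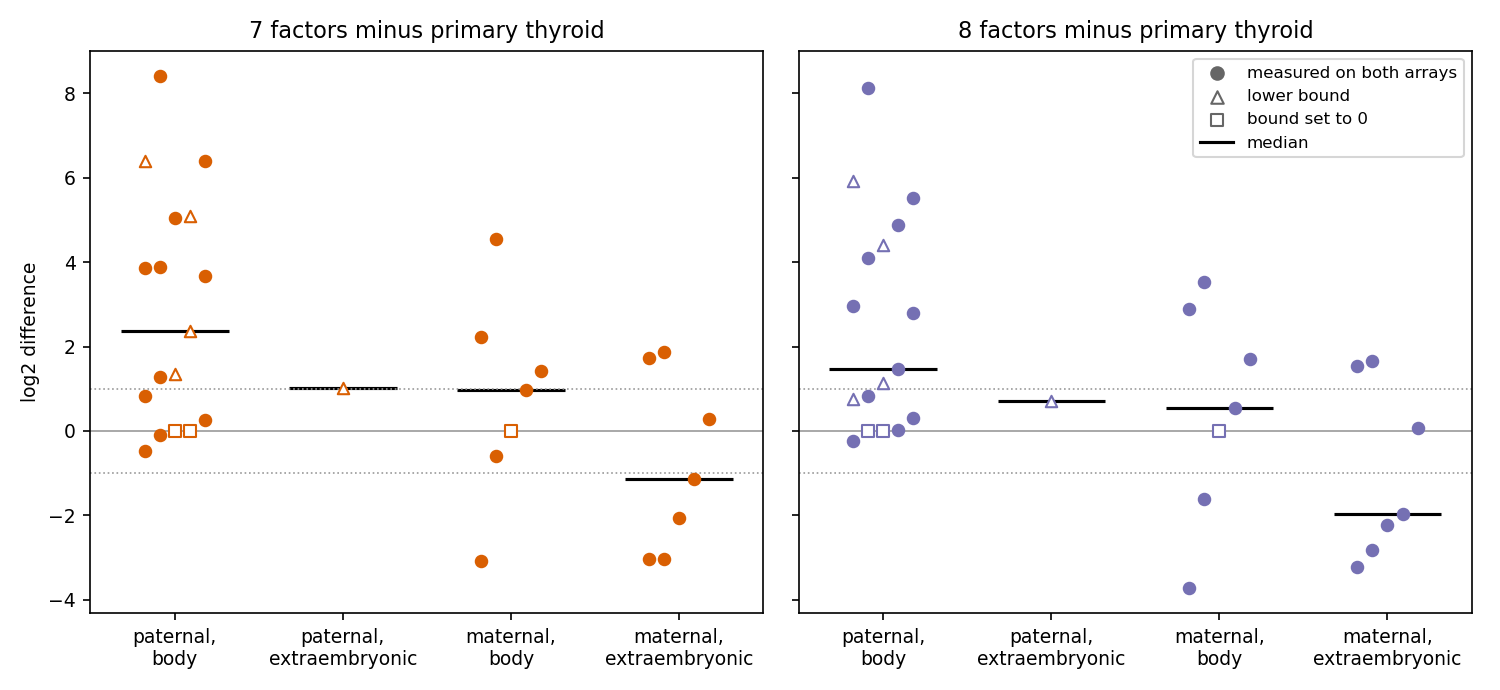
Log2 difference from the primary thyroid culture of each imprinted gene compared, for 7 factors at left and 8 factors at right, by the allele expressed and by where imprinting is known. Triangles are lower bounds, squares are bounds set to 0, bars are medians and dotted lines mark 2-fold. The medians run from 2.37 (7 factors) and 1.48 (8 factors) for paternally expressed genes of the body to -1.14 and -1.96 for maternally expressed genes of extraembryonic tissue. Without scaling all points move up by 2.12 at left and 2.33 at right before bounds are drawn again. Those negative medians then turn to 0.98 and 0.37. Of the points called lower, Cd81 and Tspan32 (both panels) and Slc22a18 (8 factors) then change direction.

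The maternally expressed members were also divided by where imprinting is known. Of the 7 imprinted in the body 3 were higher and 1 lower with 7 factors (median 0.96), and 3 higher and 2 lower with 8 (median 0.55). Of the 7 compared that are imprinted mainly in extraembryonic tissue 2 were higher and 4 lower in each comparison, with medians of -1.14 and -1.96, the values of Cd81, which turn to 0.98 and 0.37 without scaling. All of these but Ppp1r9a and Gatm lie in the Kcnq1ot1 cluster. In both comparisons 42.9% of the body class and 28.6% of the extraembryonic class were higher, beside 19.1% and 17.8% of all genes. Lower genes made up 14.3% and 28.6% of the body class and 57.1% of the extraembryonic class, beside 27.1% and 27.5%. Asb4, called higher in the body class, lost its call under normexp and with averaged probes. Of 5 trophoblast markers with a probe, which would mark placental cells, 0, 2 and 1 were well above background on the 7-factor, 8-factor and primary arrays. Their summed levels were 0.0198, 0.022 and 0.241, the last mostly from Tfap2c (-2.31), which epithelia also express.

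The Kcnq1ot1 cluster on chromosome 7 holds 8 of the maternally expressed members. With 7 factors 2 of the 8 were higher and 4 lower (median -0.87), beside 19.1% and 27.1% of all genes. With 8 factors 2 of the 8 were higher and 5 lower (median -1.79), beside 17.8% and 27.5%. Both medians lie within the shift of 2.12 and 2.33 that leaving out scaling brings, so their sign turns without it. Its silencing RNA Kcnq1ot1, a long noncoding RNA read from the paternal allele, had levels of 1.85, 2.34 and -2.51 and was 20.5-fold and 28.7-fold higher in the induced cultures. None of its other 5 probes was well above background in the primary culture. The genes under it did not share 1 direction.

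Cdkn1c, the cell-cycle inhibitor p57, had levels of 2.33, 1.31 and -2.22 and was 23.5-fold and 11.6-fold higher in the 7- and 8-factor cultures (log2 4.55 and 3.54, or 3.69 and 2.68 under normexp). Phlda2, which restrains placental growth and lies close to it, had levels of -2.91, -3.53 and 0.19 and was 8.53-fold and 13.1-fold lower. A second Phlda2 probe gave log2 differences of -3.05 and -3.16. So Cdkn1c was low and Phlda2 high in the primary culture. Slc22a18, an organic cation transporter-like gene between them, had levels of 0.82, -0.20 and 1.41, a difference of -0.60 with 7 factors and 3.06-fold lower with 8, where the direction turns to 0.72 without scaling.

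Among the outer genes of the cluster, Ascl2, a helix-loop-helix factor of trophoblast, had levels of -6.43, -6.22 and -3.40 and was 8.16-fold and 7.09-fold lower (log2 -3.03 with 7 factors, or -2.09 under normexp). Osbpl5, a lipid transfer protein at the other end, had levels of 4.78, 4.58 and 3.05 and was 3.32-fold and 2.90-fold higher. Dhcr7, a sterol reductase next to Osbpl5, was 2.33-fold and 2.17-fold higher. These are the ends of the cluster, and they stood in opposite directions.

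Both tetraspanin genes were lower. Tspan32, a tetraspanin of blood cells, had levels of -3.79, -3.97 and -1.74 and was 4.14-fold and 4.69-fold lower, and without scaling this became 0.07 and 0.10 on the log2 scale. Cd81, a widely expressed tetraspanin, had levels of 6.21, 5.39 and 7.35 and was 2.20-fold and 3.89-fold lower, which turned to 0.98 and 0.37 without scaling. With 7 factors its call was also lost under normexp (-0.94), quantile normalization (-0.50) and the median shift (-0.84). The leukocyte markers named above, high on the primary array alone, moved with both genes, and their part was not tested.

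Nap1l4, a nucleosome assembly protein, had levels of 5.30, 5.08 and 5.01, differences of 0.29 and 0.07. Its other probes gave -1.34 and -2.54 with 7 factors and -0.50 and -2.13 with 8, so the gene's probes do not settle a direction. Tssc4, a splicing-related gene of the cluster, differed by -0.04 and -0.06, and the potassium channel gene Kcnq1, which Kcnq1ot1 overlaps on the other strand, by -0.37 and -0.98. The TNF receptor gene Tnfrsf23 differed by -0.92 and -0.56, and its neighbour Tnfrsf22 fell just short of the 2-fold limit in both. The neighbour Cars, a tRNA synthetase, differed by -0.94 and -0.95, within 2-fold like these.

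**Figure D3:**
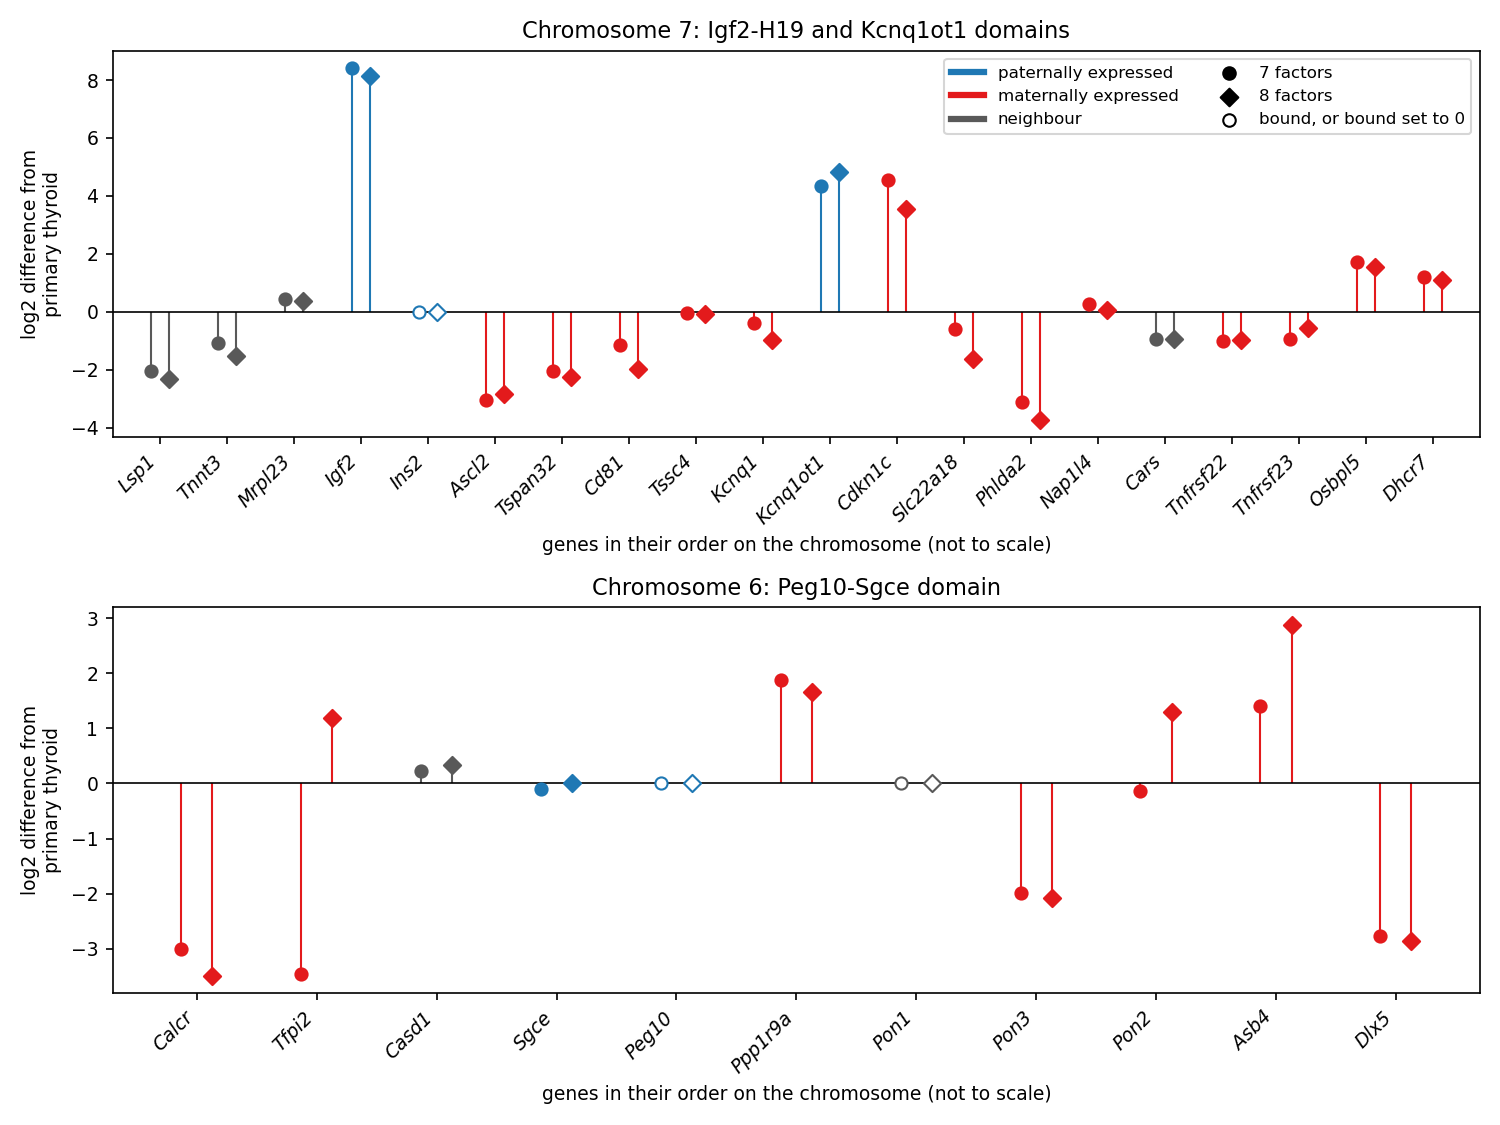
Log2 difference from the primary culture of the genes of 2 imprinted clusters, drawn in their order along the chromosome and not to scale, with circles for 7 and diamonds for 8 factors. Open symbols are bounds or bounds set to 0. Igf2 (8.40 and 8.13), Kcnq1ot1 (4.36 and 4.84) and Cdkn1c (4.55 and 3.54) rise out of a stretch in which Phlda2 and Ascl2 lie below 0, and Tfpi2 is the gene whose symbols point opposite ways by over 2-fold. Without scaling lower genes that lie less than 2.12 (circles) or 2.33 (diamonds) under the primary culture change direction, among them Lsp1, Tspan32, Cd81 and Pon3.

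Igf2r, the receptor that clears IGF2 from the cell surface, had levels of 3.78, 3.36 and 2.82 and differed by 0.96 and 0.55, within 2-fold. Airn, the paternally expressed noncoding RNA that overlaps Igf2r on the other strand, was 2.59-fold and 2.01-fold higher. Slc22a3, a cation transporter of that cluster imprinted in placenta, was the 1 member not well above background on any array.

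Grb10, an adaptor that restrains insulin and IGF receptor signalling, had levels of 3.80, 3.29 and 1.58 and was 4.67-fold and 3.26-fold higher in the induced cultures. Its other probes had the same direction, from 0.62 to 3.70 on the log2 scale. Ddc, a decarboxylase beside it that C cells also express, was 5.83-fold and 5.50-fold lower, next to the high C cell and parathyroid markers of the primary array, whose part was not tested. Gatm, the first enzyme of creatine synthesis, had levels of -2.88, -3.09 and 0.14 and was 8.12-fold and 9.41-fold lower.

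The second list of imprinted genes and neighbours, which was not divided by where imprinting is known, gave other counts. Of 42 compared, 7 were higher and 11 lower with 7 factors and 8 higher and 10 lower with 8, near the shares of all genes. Its 10 paternally expressed genes gave 3 higher and 3 lower in both comparisons, with medians of 0.00 and 0.21, where 3 and 2 of them had no usable fold and count as 0. Its 22 maternally expressed genes gave 4 higher and 5 lower (median -0.37) with 7 factors, and 5 higher and 4 lower (median -0.58) with 8.

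Outside the clusters described, decorin (Dcn), a matrix proteoglycan of fibroblasts imprinted in placenta, was 7.80-fold and 4.81-fold higher. The fibroblast markers were also higher as a sum, and their part was not tested. Among them Pdgfrb went the other way with 7 factors (0.98 against 1.45 in the primary culture). Mcts2, a translation regulator in an intron of H13, was 2.87-fold and 2.00-fold higher. H13 itself, the signal peptide peptidase, differed by -0.98 with 7 factors and was 3.35-fold lower with 8, while its other probes gave the opposite sign (0.67 and 1.38, and 1.24 and 0.43). Rasgrf1, a Ras exchange factor, was at least 9.82-fold lower with 7 factors and 6.77-fold lower with 8. Gnas, the stimulatory G protein that couples the TSH receptor, was 4.31-fold lower with 7 factors and differed by -0.85 with 8. The directions of Gnas and H13 turn without scaling.

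Of the regulators and partners, 12 were higher and 2 lower of 22 compared with 7 factors (54.5% and 9.09%, beside 19.1% and 27.1% of all genes) and of 23 with 8 factors (52.2% and 8.70%, beside 17.8% and 27.5%). The medians were 1.18 and 1.01. Those furthest apart encode RNA-binding proteins of the IGF2 pathway. Igf2bp3, an RNA-binding protein of Igf2 mRNA, was at least 87.5-fold and 73.2-fold higher, and its relative Igf2bp1 had levels of 1.27, 1.98 and -4.23, 45.3-fold and 73.9-fold higher. Igf2bp2 was 2.08-fold and 2.28-fold higher. The receptors of the ligand were less far apart. Igf1r, which carries the growth signal of IGF2, was 2.80-fold and 1.63-fold higher, and the insulin receptor gene Insr 2.58-fold and 3.45-fold higher. Other Igf1r probes were short of a call, with log2 differences of 0.86 and 0.39 with 7 factors and 0.25 and -0.02 with 8. Igf1, the postnatal growth factor, was 5.52-fold and 3.08-fold higher, and the binding protein gene Igfbp5 4.27-fold and 2.19-fold higher.

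Genes that keep or write methylation marks differed in both directions. Zfp57, which protects imprints, had levels of -2.53, -2.03 and -4.29 and was 3.38-fold and 4.77-fold higher in the induced cultures. Zfp445, a zinc finger protein of the same role, had levels of 0.15, -1.66 and -1.97, 4.32-fold higher with 7 factors and 1.24-fold with 8. Its other probes gave log2 differences of 1.65 and 0.30 with 7 factors and 0.33 and 0.21 with 8. The corepressor gene Trim28, the maintenance methyltransferase gene Dnmt1 and its recruiter Uhrf1 stayed within 2-fold in both. The de novo methyltransferase genes parted: Dnmt3b was 4.44-fold and 4.20-fold higher, and Dnmt3a 3.02-fold and 2.08-fold lower, a direction that turns without scaling. Other Dnmt3a probes gave -0.25 and -0.45, and -1.21 and -0.83, on the log2 scale. Dnmt3l, the cofactor of these methyltransferases in germ cells, was 8.40-fold and 5.86-fold lower. Tet3, which oxidises methylcytosine, was 9.09-fold and 5.08-fold higher on its brightest probe. Another Tet3 probe, well above background on every array, gave 0.28 and 0.16 on the log2 scale. Ctcf, the insulator protein that binds the H19 control region, was 2.46-fold and 2.04-fold higher.

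With Hhex added, 27 of 32 members stayed within 2-fold between the induced cultures, which share a slide and a scan. So did 14866 of 16262 genes compared. Of 32 members 1 was higher and 4 lower with 8 than with 7 factors, 3.12% and 12.5%, beside 4.54% and 4.04% of all 16262 genes compared. The median was -0.31 for the members and -0.09 for all genes. Paternally expressed members gave 0 higher and 2 lower (median -0.38) and maternally expressed ones 1 higher and 2 lower (median -0.27).

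The lower members lay close to the 2-fold limit. Mkrn3 fell by 1.23 on the log2 scale from -2.78 to -4.00, and Plagl1 by 1.09 from 5.51 to 4.42. Cdkn1c and Slc22a18 both fell by 1.02, and like Plagl1 they lay within their scanner error of the limit. The second probes of Plagl1 and Slc22a18 each gave -0.70, short of a call. Mkrn3 was not called under normexp (-0.87). Under quantile normalization or without scaling 1 of the members was lower. Asb4 was the higher one, by 1.48 ± 0.20, from -3.49 to -2.01, and it was not called with averaged probes.

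Among members short of a call, Snrpn differed by 0.80 on its brightest and 0.74 on its second probe, and Slc38a4 by -0.86 and 0.29. Peg3 and Grb10 had another probe beyond 2-fold. For Peg3 it gave -1.75, beside -0.68 on the brightest. For Grb10 it gave 1.63, the opposite sign to -0.52 on the brightest, and a further Grb10 probe gave -0.94. In all, 15 other probes of members could be read on both induced arrays, and 8 had the sign of the brightest probe while 7 had the opposite one. Against the primary culture 10 of 13 had the same sign with 7 factors and 9 of 13 with 8. In the second list Tfpi2, a maternally expressed protease inhibitor of the Peg10-Sgce cluster, had levels of -6.74 with 7 factors and -2.09 with 8, a 25.2-fold difference. Of the 42 genes compared in that list 4 were higher and 2 lower with 8 than with 7 factors. These are 9.52% and 4.76%, beside 4.54% and 4.04% of all genes. Beside Tfpi2, the paraoxonase genes Pon2 and Pon1 were 2.70-fold and 2.15-fold higher and Gnas 2.40-fold higher (a second Gnas probe gave -0.24 on the log2 scale). Klf14 was 3.16-fold and Slc22a2 2.57-fold lower. Zfp445 of the list of regulators was 3.49-fold lower, while its other probes gave -1.32 and -0.10 on the log2 scale.

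**Figure D4:**
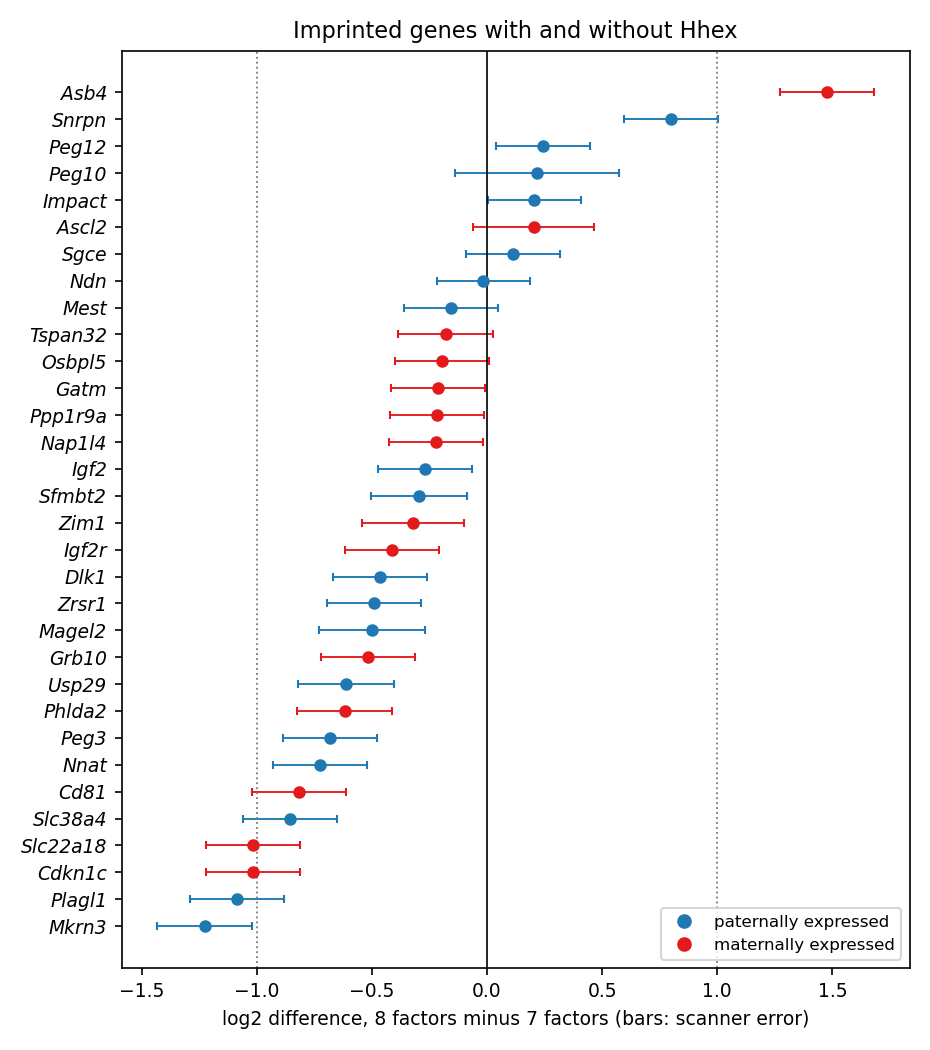
Log2 difference between the 8- and the 7-factor culture of 32 imprinted genes, sorted by size, with the scanner error as bars and dotted lines at 2-fold. Asb4 (1.48) lies beyond the upper line, and Slc22a18, Cdkn1c (both -1.02), Plagl1 (-1.09) and Mkrn3 (-1.23) at or beyond the lower one, where 1 gene remained under quantile normalization and without scaling.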

How the data were processed

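Total RNA of 3 cultures was read on 1 array each, labelled with Cy3 per the labels' protocols. The deposited values are the intensity of each spot. Background and spatial trends were removed by Feature Extraction 11.5.1.1 per the file headers, whereas the submitters' processing notes name version 10.5. The deposited series table equals these processed signals with no scaling between arrays, although the design text names a shift to the 75th percentile. Control and outlier spots were left out, and from the log2 signal of each probe the 75th percentile of its array was taken away. RefSeq accessions named 27815 of 41171 probes (67.6%) through the GRCm38.p6 annotation, and the other probes were not analysed here. Per the file headers the array grid was built on mm9.

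The members and lists were chosen with earlier results of these data known. Every member with a probe is named, and of the other lists the largest differences and the genes of domains described. Promoter sequences are RefSeq's on GRCm38.p6. The calling steps were tested on simulated data. The 7 alternatives were normexp background correction in limma 3.58.1 (R 4.3.3, offset 50), quantile normalization, no scaling, a shift to the median, the mean of all probes of a gene, genes well above background on both arrays, and the deposited series table. Normexp was run on median spot and background signals. Python 3.11.15, numpy 2.4.6, pandas 2.3.3 and matplotlib 3.10.9 did the rest. With 1 array per group the number of arrays limits the precision.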

Additional observations from a re-analysis of the deposited data

Results flagged for a closer look

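Tfpi2, a maternally expressed protease inhibitor gene of the Peg10-Sgce cluster, differed from the primary culture in opposite directions in the induced cultures. It was lower with 7 factors, a log2 difference of -3.46, and higher with 8 factors, 1.19. The direct difference between the induced cultures was 4.65 ± 0.27 (scanner error). With 1 array per group this difference was not tested.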

How the results depend on the processing

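No paired analysis was possible because each group holds 1 array. Over 7 alternatives, 656 differences of single members were recomputed, and 7 that were at least 2-fold in the main setting changed direction. Apart from the setting without scaling, 2 of 560 did: Asb4 with 7 factors gave -0.59 with averaged probes and -0.65 with normexp. Sign changes of differences short of 2-fold are not in these counts. Nap1l4 with 7 factors, for example, turned from 0.29 to -1.20 with averaged probes. The series table gave the same value for all 96 differences. Leaving out scaling raised the median of all genes by 1.94 (7 factors against primary), 2.11 (8 against primary) and from -0.09 to 0.12 (8 against 7), with 11208 genes higher and 1140 lower, 11715 and 978, and 1200 and 339. The shift to the median moved the first by 0.12, with 4218 higher and 3694 lower.

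Without scaling, Cd81 gave 0.98 and 0.37 with 7 and 8 factors, Tspan32 0.068 and 0.10, and Slc22a18 0.72 with 8 factors. With 7 factors against primary, 26 members were then higher and 0 lower, with medians of 3.99 (paternal) and 2.19 (maternal). The paternal median was 0.98 with normexp, 2.50 with quantile normalization, 2.17 with the median shift and 3.68 over genes above background on both arrays. The maternal median was -0.14, 0.46 and 0.37 in the first 3 and -0.81 with averaged probes. With 8 factors against primary, 25 members were higher and 1 lower without scaling, with medians of 3.64 and 2.13. The paternal median was 0.92 with normexp, 1.59 with quantile normalization, 1.55 with the median shift and 2.80 above background on both. The maternal median was 0.37 with quantile normalization and -0.43 with averaged probes. For 8 against 7 factors, no scaling gave 2 higher and 1 lower and medians of -0.17 (paternal) and -0.060 (maternal), quantile normalization 1 lower, and averaged probes 0 higher. The cause of these shifts was not tested, other than that no scaling leaves in the 4.34-fold and 5.03-fold brighter signals of the induced arrays. Their spike-in controls were 0.93 and 0.532 of the primary array's.

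The dimmer primary array limits what can be read: 24 of 33 members were well above background there, against 32 on each induced array, so 5 differences are bounds and 3 have no fold.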
